A study of Bos taurus with 60 samples.

Results

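The miR-181 family was described in the liver of 60 beef steers through its mature miRNAs bta-miR-181a, bta-miR-181b, bta-miR-181c and bta-miR-181d. The members were the 4 of 1030 known bovine miRNAs in the counts that carry these names, and reads of a mature miRNA counted for more than 1 precursor were averaged. Liver small RNA was sequenced as 1 library per steer from 20 Angus, 20 Charolais and 20 Kinsella Composite (KC) steers, and KC is a composite population of crossed beef breeds. Steers are castrated males, and all of them received the same finishing diet, which was 75% grain and 20% silage, both of barley, with rumensin pellets as the other 5%. Residual feed intake (RFI) is the feed an animal eats beyond what its weight and growth predict, so that a low-RFI steer is an efficient one. In each breed the labels put 6 steers in a low-RFI group and 6 in a high-RFI group, and give no RFI group for the other 8. By the study's account all 20 steers of a breed had its highest or lowest RFI values, so these 8 are not a middle group. Means of the 20 may therefore differ from those of the herd. The study picked the 12 steers with an RFI group from the extremes of RFI partly because their miRNA profiles were alike, so the spread within RFI groups may be narrower than in the herd. Steers shared sires (10 sires named for the KC steers, 5 for the Charolais and 7 for the Angus, with 1 KC steer whose sire label begins with NA and may be unknown), and breed cannot be told apart from sire or from age at slaughter, which the study states differed between breeds.

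A miRNA is cut from a hairpin precursor and guides a silencing complex to messenger RNAs, mostly by pairing of its seed, bases 2 to 8, with sites in the target. miRNAs with the same seed form a family whose members can bind the same sites. The miR-181 family is best known from lymphocytes, where miR-181a tunes the sensitivity of developing T cells to antigen, and it has also been studied in liver cells. Its genes lie in clusters in mammals, so that a member of the family is usually transcribed together with another.

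The mature sequences are shown because the members differ in few bases, which bears on how their reads could be told apart. All were taken from the study's list of mature sequences, in RNA letters from 5′ to 3′, with the seed in capitals:
bta-miR-181a: aACAUUCAacgcugucggugaguu
bta-miR-181b: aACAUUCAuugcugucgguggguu
bta-miR-181c: aACAUUCAaccugucggugaguuu
bta-miR-181d: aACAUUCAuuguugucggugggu

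The seed was ACAUUCA in all 4 members and in no other of the 588 mature sequences listed. With positions counted from 1 at the 5′ end, bta-miR-181a and bta-miR-181b differed by A9U, C10U and A21G over 24 bases. bta-miR-181b and bta-miR-181d differed by C12U alone over 23 bases. bta-miR-181c equalled bta-miR-181a over 23 bases when G at position 11 of bta-miR-181a was left out. By sequence, then, the closest pairs were bta-miR-181b with bta-miR-181d, and bta-miR-181a with bta-miR-181c. Among the 588 sequences listed, no miRNA outside the family came within 1 mismatch of a member.

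In the RefSeq annotation of assembly ARS-UCD2.0, all 6 miR-181 genes have another miR-181 gene as a neighbour. MIR181A-2 neighbours MIR181B-2, MIR181B-1 neighbours MIR181A-1, and MIR181D neighbours MIR181C. By gene order, bta-miR-181a goes with bta-miR-181b, and bta-miR-181c with bta-miR-181d, which is not the pairing by sequence. Reads of bta-miR-181a were counted for both of its precursors with equal counts in 50 of 60 steers and a gap of at most 3 counts in the rest, so the counts do not tell the 2 loci apart. For bta-miR-181b, the precursor bta-mir-181b-2 had the higher count in 60 of 60 steers, by 0.78% to 3.47% with a median of 1.90%. That gap was at most 60 counts, and the levels of the 2 loci cannot be read from it.

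Library totals ran from 1930859 to 6759381 counts, with a median of 3720336 for Angus, 4405876 for Charolais and 5547018 for KC. At these totals 3 counts correspond to 0.444 to 1.554 CPM (counts scaled to a library total of 1000000), and all members were above that in every steer. No libraries were identical. TMM scaling, which corrects library totals for a few dominant miRNAs, gave 3 libraries low factors: 0.671 in Angus, 0.685 in Charolais and 0.795 in KC, against 0.905 to 1.17 in the other 57. These 3 steers had no RFI group and so enter no RFI comparison. Values without them are given beside the mean levels, the correlations between members, the ratios, and the breed and family differences that they moved. All 4 hepatocyte markers looked for (bta-miR-122, bta-miR-885, bta-miR-192 and bta-miR-194) were counted in every steer, with summed levels of 175734 to 293380 CPM. Nearly all of that sum was bta-miR-192, with a median of 232813 CPM. The medians were 7913 CPM for bta-miR-122, 1941 for bta-miR-194 and 37.3 for bta-miR-885. Because whole liver was sequenced, fewer cells of a type and less of a miRNA per cell cannot be told apart.

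bta-miR-181a made up nearly the whole family. Over the 60 steers it stood at 7879 ± 1216 CPM (SD, n = 60), with a lowest value of 5559, a median of 7709 and a highest of 10989 CPM. bta-miR-181b stood at 348 ± 52.0 CPM, ranging from 259 through a median of 345 to 487 CPM. bta-miR-181c stood at 106 ± 17.4 CPM, ranging from 51.7 through 107 to 158 CPM. The least abundant member was bta-miR-181d at 14 ± 3.37 CPM, ranging from 8.63 through 13.7 to 25.4 CPM. Without the 3 libraries of low TMM factor the means were 7940, 351, 108 and 14 CPM in the same order. The order from bta-miR-181a through bta-miR-181b and bta-miR-181c down to bta-miR-181d held within 60 of 60 steers. No neighbours in that order overlapped, since the lowest value of each of the upper 3 members lay above the highest value of the next. All 4 are 23 or 24 bases long, so length hardly enters this order, but reads of different miRNAs are not captured with equal efficiency.

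Ranked among all known miRNAs within a steer, bta-miR-181a stood between places 12 and 22 with a median of 18. bta-miR-181b had a median place of 73, bta-miR-181c of 105.5 and bta-miR-181d of 195. Together the members took 0.83% ± 0.13 of a library's counts (SD, n = 60), between 0.592% and 1.159%. Of the family's reads, bta-miR-181a held 94.3% ± 0.69, bta-miR-181b 4.20% ± 0.49, bta-miR-181c 1.30% ± 0.26 and bta-miR-181d 0.17% ± 0.05. In every steer the share of bta-miR-181a lay between 92.7% and 95.8%.

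**Figure D1:**
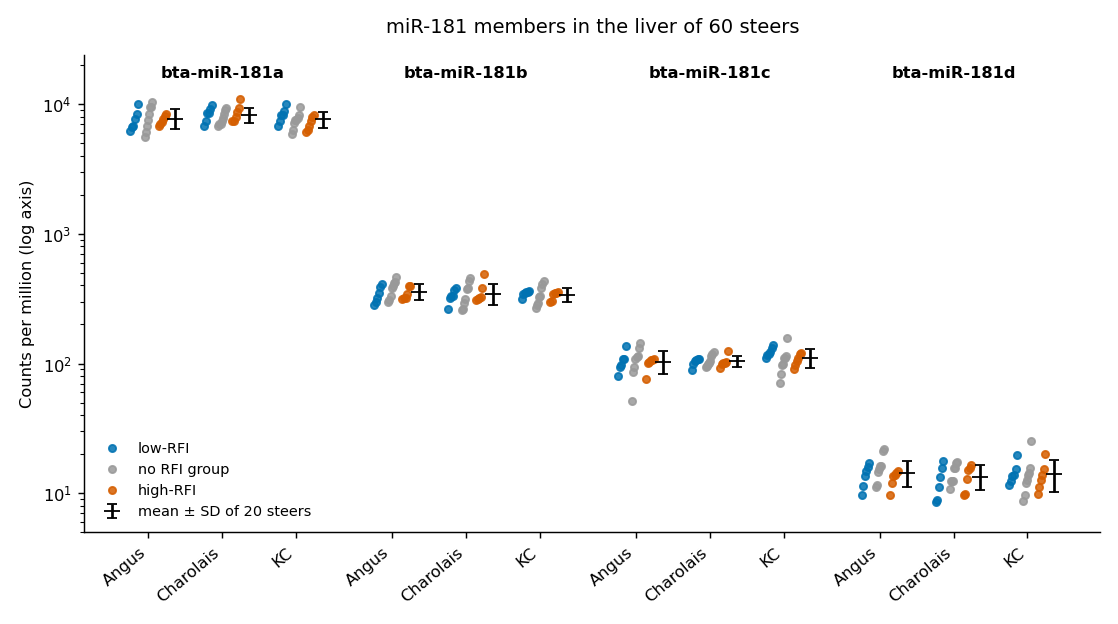
CPM (log axis) of the 4 members in each of 60 steers, by breed; points are steers coloured by RFI group, and black bars are the mean and SD of the 20 steers of a breed. The 4 members form separate bands from 5559 to 10989 CPM for bta-miR-181a down to 8.63 to 25.4 CPM for bta-miR-181d, and the breeds overlap within each band.

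On a log2 scale within breeds, the members varied less than the median miRNA tested, and the rarer ones are measured less firmly. bta-miR-181a rested on 13203 to 53366 counts a steer, bta-miR-181b on 703 to 2564.5, bta-miR-181c on 191 to 993 and bta-miR-181d on 20 to 160. Within breeds the coefficient of variation of CPM was 13.9% to 17.4% for bta-miR-181a and 11.8% to 18.3% for bta-miR-181b, where counting alone would give at most 0.62% and 2.89%. It was 9.12% to 20.3% for bta-miR-181c against at most 5.38% from counting. For bta-miR-181d it was 21.9% to 28% against 11.7% to 14.5% from counting, so counting error was a sizeable part of its spread. On TMM log2 CPM, the within-breed SD was 0.21 for bta-miR-181a, 0.19 for bta-miR-181b, 0.21 for bta-miR-181c and 0.34 for bta-miR-181d, beside a median of 0.45 over the 443 miRNAs tested for breed. Among miRNAs within 2-fold of its level, bta-miR-181a was no steadier than its peers: 8 of 16 had a smaller SD. For bta-miR-181b it was 16 of 37, for bta-miR-181c 10 of 40 and for bta-miR-181d 19 of 62. Counting intervals cover counting error only, since amplified reads are not independent molecules.

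The members moved in 2 pairs from steer to steer. After breed means were subtracted from TMM log2 CPM, bta-miR-181a and bta-miR-181b rose and fell together (Pearson's r = 0.63, Spearman's rho = 0.60, n = 60 steers), and so did bta-miR-181c and bta-miR-181d (r = 0.61, rho = 0.58). For both pairs the two-sided permutation p of r and of rho was 1e-05, the smallest that 100000 resamples within breeds can give, and the p adjusted over the 6 pairs was 3e-05. The 2 members of the first pair lay on the same side of their breed means in 45 of 60 steers, and those of the second in 44 of 60.

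Across the pairs no relation passed the test. r was -0.05 for bta-miR-181a with bta-miR-181c, -0.12 with bta-miR-181d, 0.09 for bta-miR-181b with bta-miR-181c and 0.18 for bta-miR-181b with bta-miR-181d, and rho was -0.08, -0.20, 0.18 and 0.14. By the permutation test the adjusted p of these 4 ranged from 0.345 to 0.718 for r and from 0.274 to 0.547 for rho. The pairs that moved together were the neighbours on the chromosome. For the pairs closest in sequence, bta-miR-181b with bta-miR-181d and bta-miR-181a with bta-miR-181c, no relation was detected.

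The first pair held within every breed, with r = 0.77 in KC steers, 0.62 in Charolais and 0.58 in Angus (n = 20 each). The second gave 0.68 in KC steers, 0.73 in Charolais and 0.40 in Angus. In Angus bta-miR-181b with bta-miR-181d also had r = 0.40, the highest across the pairs in a single breed. Leaving out the 2 steers farthest from the median of the first-named member gave r = 0.59 for the first pair and 0.55 for the second. Without the 3 libraries of low TMM factor r was 0.61 and 0.67 (n = 57), and the values of the second pair became 0.80 in Angus and 0.55 in Charolais. The lower Angus value of the second pair rested on 1 of these libraries, a steer with 191 counts of bta-miR-181c, the fewest of all, and 54 counts of bta-miR-181d. Across the pairs, r without the 3 libraries ran from -0.25 to 0.19, and in single breeds reached 0.39, for bta-miR-181b with bta-miR-181c in Angus. Under 4 other settings, which were DESeq2-type size factors and, without TMM, library totals, summed precursors and thinned counts, r of the first pair ran from 0.61 to 0.69 and that of the second from 0.56 to 0.63, while across the pairs it ran from -0.10 to 0.34. The highest was bta-miR-181b with bta-miR-181c, at 0.32 to 0.34 in the 3 settings without TMM. Members that go up together in a library can also share its scaling, and r of the members with log2 library total was between 0.03 and 0.22. With the log2 TMM factor r was -0.27 for bta-miR-181a, -0.22 for bta-miR-181b, -0.02 for bta-miR-181c and -0.20 for bta-miR-181d, and the part of scaling in the pairs was not tested beyond these settings.

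**Figure D2:**
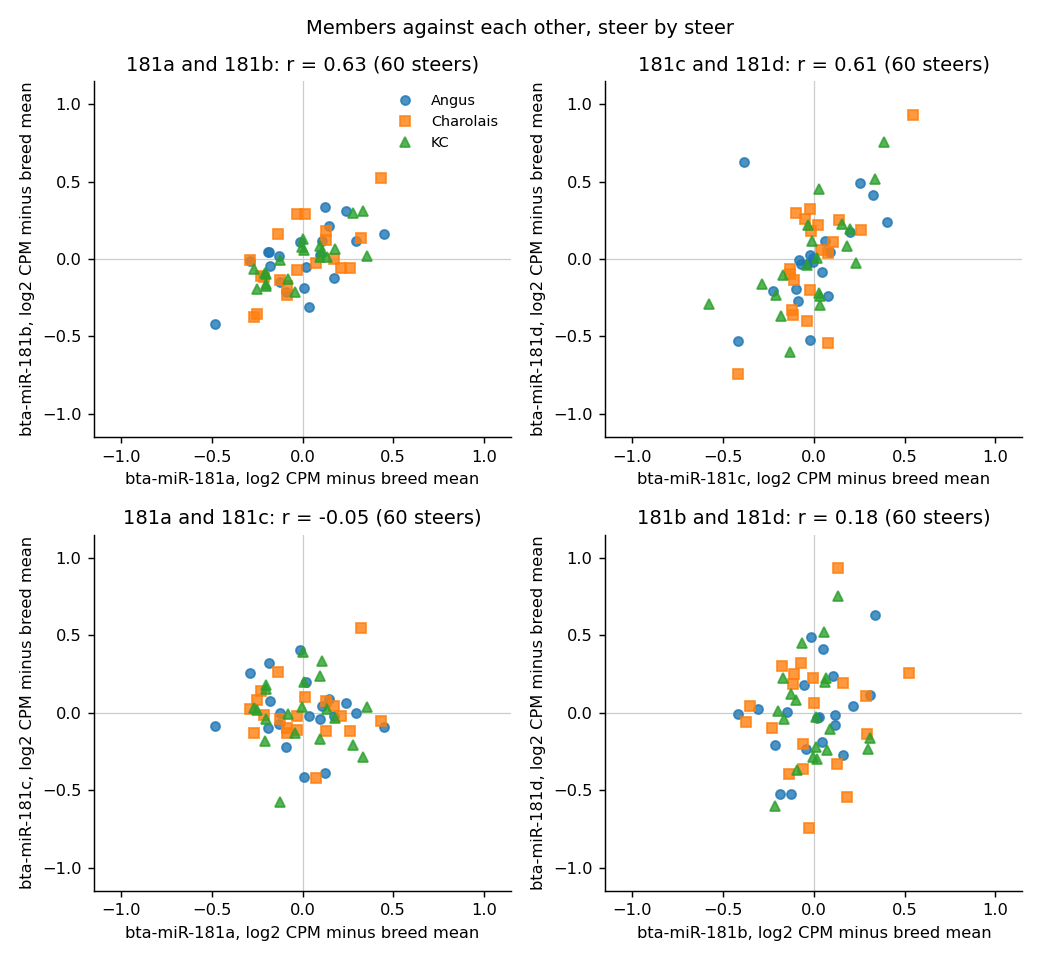
Each panel plots 2 members against each other as TMM log2 CPM minus the breed mean, with 1 point per steer and a symbol per breed. The upper panels, bta-miR-181a with bta-miR-181b and bta-miR-181c with bta-miR-181d, slope upwards (r = 0.63 and 0.61), and the lower panels show no slope for bta-miR-181a with bta-miR-181c (r = -0.05) and little for bta-miR-181b with bta-miR-181d (r = 0.18).

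Ratios of 2 members within a steer need no normalization. A steer had 22.8 ± 2.89 counts of bta-miR-181a for each count of bta-miR-181b (SD, n = 60), from 17.8 through a median of 22.5 to 30.0. It had 7.83 ± 1.44 counts of bta-miR-181c for each of bta-miR-181d, from 3.54 through 7.66 to 12.2. The ratio of bta-miR-181a to bta-miR-181c was 75.9 ± 16.3, and that of bta-miR-181b to bta-miR-181c was 3.35 ± 0.68. On a log2 scale the within-breed SD was 0.17 for bta-miR-181a to bta-miR-181b, where counting alone would give 0.04. It was 0.30 for bta-miR-181a to bta-miR-181c and 0.27 for bta-miR-181b to bta-miR-181c, where counting would give 0.07 and 0.08. For bta-miR-181c to bta-miR-181d it was 0.27 against 0.21 from counting, so counting error was a large part of the spread of that ratio.

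The ratio of bta-miR-181a to bta-miR-181b was 24.2 ± 3.14 for Charolais, 22.4 ± 2.01 for KC and 21.7 ± 2.91 for Angus (SD, 20 steers each). On the log2 scale the largest gap between breed means was 0.16, between Charolais and Angus, and it gave p = 0.0109 in a permutation test over breeds and 0.0656 after adjustment over the 6 pairs of members. The other 5 ratios had gaps of 0.06 to 0.21 and adjusted permutation p of 0.195 to 0.843. Without the 3 libraries of low TMM factor the gap was 0.14 for bta-miR-181a to bta-miR-181b and 0.23 for bta-miR-181a to bta-miR-181c, each with an adjusted permutation p of 0.115, and the other 4 had adjusted p of 0.128 to 0.466. No ratio therefore passed the test between breeds. Between low-RFI and high-RFI steers the exact permutation p of the 6 ratios in the 3 breeds ranged from 0.0693 to 0.968, each with 6 against 6 steers, and the adjusted p was 0.968 for all 18.

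**Figure D3:**
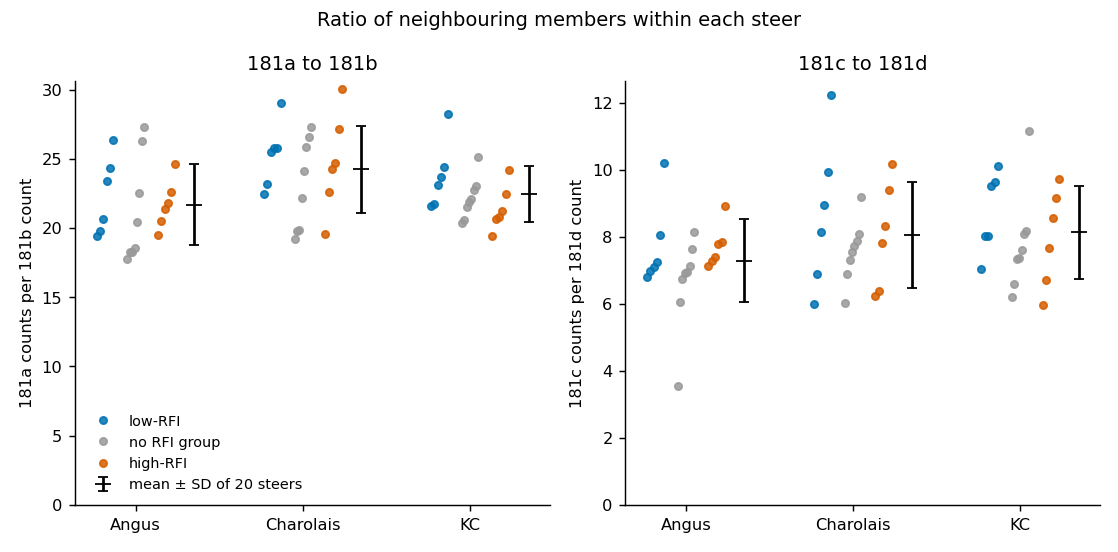
Counts of bta-miR-181a per count of bta-miR-181b (left) and of bta-miR-181c per count of bta-miR-181d (right) in each steer, by breed and coloured by RFI group; black bars are the mean and SD of 20 steers, and both axes start at 0. Breed means lie at 21.7 to 24.2 on the left and at 7.29 to 8.14 on the right, and the steers of the breeds overlap.

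The miRNAs most like each member were ranked by Pearson's r of breed-centred log2 CPM over the 60 steers, among 213 others with a mean of at least 10 CPM. These are descriptions with no test, and all values of a steer share its library. For bta-miR-181a the 5 closest were bta-miR-181b (r = 0.63), bta-miR-122 (0.57), bta-miR-30d (0.52), bta-miR-28 (0.49) and bta-let-7g (0.44). bta-miR-122 is known as a hepatocyte miRNA, and its r with bta-miR-181a was 0.57 to 0.59 in all 3 breeds. The other 3 hepatocyte markers had lower r with bta-miR-181a, -0.06 for bta-miR-885, 0.18 for bta-miR-192 and 0.31 for bta-miR-194. The summed list had r = -0.03, but its sum was scaled by library totals without TMM, so that value cannot be set beside the others. For bta-miR-181b the 5 closest were bta-miR-181a, bta-miR-423-5p (0.52), bta-miR-107 (0.49), bta-let-7e (0.48) and bta-miR-28 (0.47).

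The other pair had different company. For bta-miR-181c the 5 closest were bta-miR-199b (r = 0.70), bta-miR-181d (0.61), bta-miR-10b (0.49), bta-miR-429 (0.44) and bta-miR-141 (0.44). For bta-miR-181d they were bta-miR-199b (0.72), bta-miR-10b (0.62), bta-miR-181c (0.61), bta-miR-199c (0.52) and bta-miR-130a (0.51). bta-miR-199b stood first for both, with r of 0.63 to 0.84 for bta-miR-181c and 0.69 to 0.82 for bta-miR-181d in the single breeds. miR-199 miRNAs are known from stellate and other mesenchymal cells, and miR-141 and miR-429 from epithelial cells such as those of bile ducts. Of the 20 values of r named here, the lowest without the 3 libraries of low TMM factor was 0.36, for bta-let-7g with bta-miR-181a. Not all held in each breed: bta-miR-429 with bta-miR-181c had r = -0.03 in Charolais, and bta-let-7g with bta-miR-181a had r = 0.09 in Angus.

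Marker lists of liver cell types were set beside this. Of the 5 biliary epithelial markers, the 4 that reached 10 CPM on average had r of 0.34 to 0.44 with bta-miR-181c and 0.14 to 0.37 with bta-miR-181d, against -0.15 to 0.07 with bta-miR-181a. The 5 biliary markers summed to 125 to 348 CPM for KC, 150 to 335 for Charolais and 117 to 378 for Angus. Of the 5 stellate and mesenchymal markers, bta-miR-199a-3p had r = 0.35 with bta-miR-181c and 0.47 with bta-miR-181d, and the other 4 had r of 0.17 to 0.29 with bta-miR-181c and 0.09 to 0.31 with bta-miR-181d. That list, led by bta-miR-143, summed to 140235 to 232876 CPM for KC, 139721 to 258046 for Charolais and 131963 to 206820 for Angus. The 7 leukocyte markers, from the cells for which the family is best known, had r of -0.24 to 0.20 with bta-miR-181a and -0.06 to 0.26 with bta-miR-181c. Their r was -0.35 to 0.05 with bta-miR-181b and -0.10 to 0.20 with bta-miR-181d. Their sum ran from 4147 to 7217 CPM for KC, 3733 to 6563 for Charolais and 2541 to 6577 for Angus. The 2 endothelial markers had r of -0.23 to 0.04 with the 4 members. The 3 erythroid markers had r of -0.35 to 0.07, the lowest for bta-miR-451 with bta-miR-181b. With bta-miR-181b, the 4 biliary markers had r of -0.22 to 0.18, and the 5 stellate and mesenchymal markers of -0.36 to 0.24. No marker of these lists was at 0 in any steer. The part of cell type in the members' levels was not tested.

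Breed was compared over all 60 steers with edgeR's quasi-likelihood test, which covered the 443 miRNAs that reached 1 CPM in 6 or more steers. Breed means of bta-miR-181a were 8260 ± 1145 CPM for Charolais, 7744 ± 1351 for Angus and 7632 ± 1106 for KC (SD, 20 steers each). Angus steers ran from 5559 to 10374 CPM, Charolais from 6744 to 10989 and KC from 5898 to 10038, so the breeds overlapped over most of their range. In the same order of breeds, bta-miR-181b stood at 346 ± 63.1, 358 ± 51.1 and 340 ± 40.1 CPM. bta-miR-181c stood at 104 ± 9.52, 104 ± 21.0 and 111 ± 19.4 CPM, and bta-miR-181d at 13.5 ± 2.94, 14.4 ± 3.23 and 14.1 ± 3.94 CPM.

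None of the 4 members passed an adjusted p of 0.05 in any breed comparison. Over the 3 breeds at once, 18.1% of the miRNAs tested were called (80 of 443) and 0 of 4 members, with adjusted p of 0.176 to 0.946 in edgeR. Between single breeds the share called was 1.35% for Charolais against Angus, 11.3% for KC against Angus and 17.2% for KC against Charolais, and again 0 of 4 members each time. At an unadjusted p under 0.05 the count of members was 1, for KC against Charolais, and 0 in the other 3 comparisons. Over all miRNAs that threshold passed 124 of 443 for KC against Charolais, so 1 of 4 members did not stand out. It passed 117 for KC against Angus, 76 for Charolais against Angus and 149 over the 3 breeds at once. For Charolais against Angus, bta-miR-181a had an unadjusted p under 0.05 in 7 of 11 alternatives, and its log2 difference of 0.12 ran from 0.09 with library totals to 0.22 on the 36 steers with an RFI group, with edgeR adjusted p of 0.141 at the lowest. The member with an unadjusted p under 0.05 between KC and Charolais was also bta-miR-181a, lower in KC than in Charolais by a log2 difference of -0.14 (95% interval -0.28 to -0.01, edgeR adjusted p = 0.126). It was called when DESeq2 size factors replaced TMM (-0.17, adjusted p = 0.0445), where 77 of 443 miRNAs were called. It was also called in the DESeq2 test (-0.17, adjusted p = 0.0401), where 78 of 443 miRNAs were called. Over the 11 alternatives run its difference stayed below 0, from -0.22 to -0.11, with adjusted p of 0.0401 to 0.300. Without the 3 libraries of low TMM factor it was -0.14, with an adjusted p of 0.113 in edgeR.

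The 95% intervals of all 12 differences between 2 breeds lay between 0.826-fold, for bta-miR-181a in KC against Charolais, and 1.19-fold, for bta-miR-181a in Charolais against Angus. A change of 1.5-fold of any member between 2 breeds is therefore outside these intervals. The median size of the members' log2 differences was 0.05 in each of the 3 pairs of breeds, beside 0.14 to 0.15 over all miRNAs tested.

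Low-RFI steers were compared with high-RFI steers within each breed, 6 against 6, with the study's thresholds of an unadjusted p under 0.05 and a fold change above 1.5. Sires were not balanced over the RFI groups, and some had steers in the low-RFI or the high-RFI group only. RFI group is therefore partly mixed with sire. The edgeR fits of RFI and of breed have no term for sire. All permutation tests, those of correlations and of breed ratios included, treat half-sibs as independent. In Angus, bta-miR-181a ran from 6182 through a median of 7278 to 9973 CPM in low-RFI steers, and from 6745 through 7456 to 8450 CPM in high-RFI steers. The groups overlapped, and the log2 difference was 0.01 (95% interval -0.21 to 0.22). For the other 3 members in Angus the log2 differences were between -0.03 and 0.05. In Charolais, bta-miR-181a ran from 6744 through 8555 to 9864 CPM in low-RFI steers and from 7447 through 8383 to 10989 CPM in high-RFI steers. The groups overlapped here too. All 4 members had negative log2 differences, -0.12 for bta-miR-181a, -0.16 for bta-miR-181b, -0.06 for bta-miR-181c and -0.13 for bta-miR-181d. The intervals all reached above 0. The difference of bta-miR-181c was negative in 10 of 12 fits that left out a steer only, and reached 0.03 at the highest. In CPM, the low-RFI median was the higher one for bta-miR-181a, bta-miR-181b (332 against 324) and bta-miR-181c (106 against 101). For bta-miR-181d the low-RFI median was the lower one.

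In KC all 4 members had positive log2 differences, although that of bta-miR-181b was positive in 9 of 10 alternatives only, and that of bta-miR-181d in 7 of 12 fits that left out a steer. bta-miR-181c ran from 110 through 121 to 139 CPM in low-RFI steers and from 90.4 through 107 to 120 CPM in high-RFI steers. All 6 low-RFI steers lay above the median of the high-RFI steers, but the groups overlapped. Its log2 difference was 0.18 (95% interval -0.02 to 0.38, edgeR adjusted p = 0.905). The exact permutation p was 0.0411 with 6 against 6 steers, and 0.494 after adjustment over the 12 tests of members and breeds. bta-miR-181a ran from 6811 through 8200 to 10038 CPM in low-RFI steers and from 6143 through 7058 to 8317 CPM in high-RFI steers, a log2 difference of 0.18 (95% interval -0.03 to 0.39, edgeR adjusted p = 0.905; exact permutation p = 0.108). For bta-miR-181b and bta-miR-181d in KC the log2 difference was 0.03 each.

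The members were called in no breed by the study's thresholds, where 1.82% of 385 miRNAs were called for KC, 2.41% of 373 for Charolais and 2.68% of 373 for Angus. At an adjusted p under 0.05, edgeR called 0% of the miRNAs in all 3 breeds, members included. An unadjusted p under 0.05 was reached by 0 of 4 members in any breed, and by 4.42% of all miRNAs for KC, 5.36% for Charolais and 4.02% for Angus. DESeq2 and the likelihood-ratio test also called 0 of 4 members. The 12 intervals of the members reached at most 0.68-fold downwards, for bta-miR-181d in Charolais, and 1.32-fold upwards, for bta-miR-181d in KC. Leaving out each steer in turn brought no member to the thresholds, since no fold change reached 1.5. In KC the log2 difference of bta-miR-181a then ran from 0.10 to 0.23, with an unadjusted p under 0.05 in 2 of 12 fits, and that of bta-miR-181c from 0.11 to 0.21, with 1 of 12.

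Across the 36 steers with an RFI group, with breed as a term, the log2 differences of low-RFI against high-RFI steers were -0.01 for bta-miR-181a, -0.08 for bta-miR-181b, 0.03 for bta-miR-181c and -0.04 for bta-miR-181d. The study's thresholds called 0.704% of 426 miRNAs and an adjusted p under 0.05 called 0.235%, with 0 of 4 members by either rule and adjusted p of 0.896 to 0.984 in edgeR. The 4 intervals lay between 0.846-fold and 1.12-fold. The members' signs were negative in Charolais and positive in KC, though not for every member when a steer was left out. However, the test of an RFI difference that varies with breed called 0% of the miRNAs. Its adjusted p was 0.987 for each member in edgeR. A difference between breeds in the effect of RFI was therefore not shown.

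**Figure D4:**
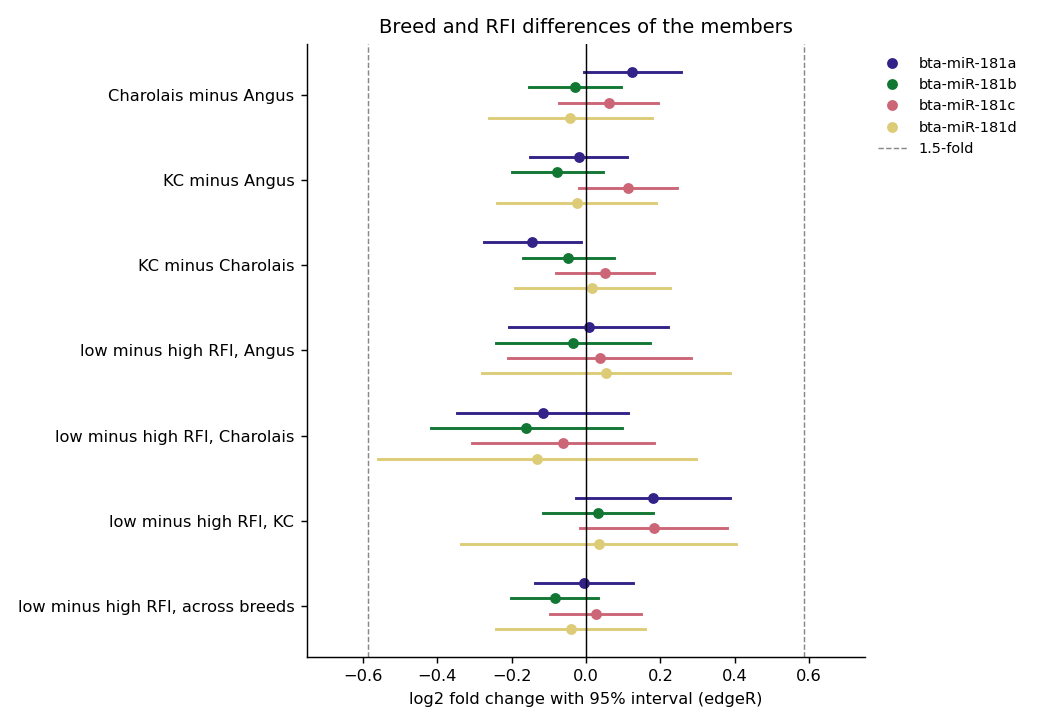
log2 fold change of each member with its 95% interval (edgeR), for the 3 pairs of breeds (60 steers), for low-RFI against high-RFI steers within each breed (12 steers each) and across breeds (36 steers); dashed lines mark 1.5-fold. All 28 intervals lie inside 1.5-fold, and only that of bta-miR-181a in KC against Charolais leaves out 0 (adjusted p = 0.126).

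Half-sib families gave a further view, since steers with the same sire share part of their genome. In Angus the 2 largest families had 6 and 5 steers, and bta-miR-181a stood at 7096 ± 830 CPM in the first and 7839 ± 1510 CPM in the second (SD), a log2 difference of -0.18 (edgeR adjusted p = 0.630). In Charolais the largest families had 8 and 4 steers. bta-miR-181c stood at 99.7 ± 10.4 CPM in the first and 110 ± 5.34 CPM in the second, a log2 difference of -0.31 (edgeR adjusted p = 0.344). bta-miR-181d stood at 13 ± 2.75 and 15.9 ± 1.89 CPM, a log2 difference of -0.45 (edgeR adjusted p = 0.359).

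These 2 differences rested on 1 library, the Charolais steer with a TMM factor of 0.685. The log2 differences use TMM, but the CPM means are scaled by library totals without it. In CPM this steer had the lowest bta-miR-181c of its family, at 105, and the highest bta-miR-181d, at 17.4. How much of the 2 differences came from the scaling was not tested. Without this steer the log2 differences were -0.15 (edgeR adjusted p = 0.830) for bta-miR-181c and -0.19 (adjusted p = 0.894) for bta-miR-181d. That of bta-miR-181a moved from 0.11 to 0.30 (edgeR adjusted p = 0.606). In KC the largest family, 8 steers, differed from the other 12 by log2 differences of -0.02 to 0.09. edgeR called 0% of 368 miRNAs between the Angus families, 1.34% of 372 between the Charolais families and 0.248% of 403 for the KC family, and 0 of 4 members in each. At an unadjusted p under 0.05 the count of members was 2 between the Charolais families, bta-miR-181c and bta-miR-181d, and 0 in the other comparisons of families. Over all miRNAs that threshold passed 50 of 372 between the Charolais families, 26 of 368 between the Angus families and 20 of 403 for the KC family. Without the 3 libraries of low TMM factor the members that passed changed to bta-miR-181a alone, between the Angus families (log2 difference -0.19, edgeR adjusted p = 0.611) and between the Charolais families. Over all miRNAs 25 of 361 then passed between the Angus families and 29 of 368 between the Charolais families. The 12 other KC steers include the one with the NA sire label.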

How the data were processed

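Small RNA of 60 livers was sequenced, and the deposited values are raw read counts, listed by mature miRNA and precursor. The authors trimmed reads with cutadapt 1.16, kept reads by length, removed other small RNAs, aligned with Bowtie 1.1.1 to UMD3.1 and counted known miRNAs with miRDeep2, without normalization. Here counts were averaged over precursors and rounded for the tests, and CPM used the averaged totals. Members and gene lists were chosen with earlier results of these data known. edgeR 4.0.16 (R 4.3.3) tested miRNAs that reached 1 CPM in 6 or more steers, with TMM and Benjamini-Hochberg adjustment, and was tested on simulated data. Breed was fitted on 60 steers, RFI on 12 per breed and on 36. log2 ratios added 0.5 to each count. Named are the members, the 5 miRNAs most like each by r of TMM log2 CPM (prior count 0.5), and cell type markers. The tests of correlations between members, and all values without the 3 libraries of low TMM factor, were added after seeing the data. Alternatives used DESeq2 1.42.0, limma 3.58.1 with sire as a block, and other scalings, filters, depths and choices of steers. Nothing says that sequencing pools were balanced over breeds, and pools were not analysed here. Predicted miRNAs were not analysed here. Other computations used Python with numpy, scipy, pandas and matplotlib.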

Additional observations from a re-analysis of the deposited data

Results flagged for a closer look

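Of 36 sets of a member and a breed and RFI group, 4 held a steer whose gap to the nearest other was large for the range of its group, a test by which about 1 in 20 groups stands out by chance. bta-miR-181b had a lowest value of 313 CPM in a KC low-RFI steer, where the next was 346 and the highest 363 CPM. bta-miR-181c had a lowest value of 75.9 CPM in an Angus high-RFI steer, from 241 counts, where the next was 101 and the highest 109 CPM. bta-miR-181c also had a highest value of 125 CPM in a Charolais high-RFI steer, where the next was 102 CPM. bta-miR-181d had a highest value of 25.4 CPM (95% counting interval 21.6 to 29.7) in a KC steer without an RFI group, where the next was 15.7 CPM. That steer, with 160 counts of bta-miR-181d, also held the highest bta-miR-181c of all 60, at 158 CPM.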

How the results depend on the processing

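Of 536 refits of a member under other settings, 2 were called, both of bta-miR-181a in KC against Charolais, so that the count of members called there was 1 in place of 0 with DESeq2 size factors and in the DESeq2 test. Over all miRNAs, 77 of 443 and 78 of 443 were called in these 2 settings. All other counts of members called stayed at 0, with each steer left out in turn as well. Summing precursors in place of averaging moved the mean level of bta-miR-181a to 13825 CPM and that of bta-miR-181b to 611 CPM, by construction, since each has 2 precursors. The 6 ratios kept their side of the threshold under 1 added count, summed precursors and without the 3 libraries of low TMM factor. The sire correlation was 0.0237 in the breed fit, and -0.038, 0.077 and 0.13 in the RFI fits of Angus, Charolais and KC. No paired analysis was possible because replicate numbers here follow accession order and pair no steers. Depth limits bta-miR-181d most, with 20 to 160 counts a steer. Members within 1 base of each other (bta-miR-181b and bta-miR-181d) may exchange reads, which was not tested.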
